A study of Homo sapiens with 12 samples.

Results

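The genes described here are 46 splicing regulators: SR proteins and their kinases, heterogeneous nuclear ribonucleoproteins (hnRNPs), RBM proteins, core spliceosome proteins and DEAD-box helicases. They were taken by gene symbol from the 25369 rows of each of 2 expression tables, and all 46 symbols were present in both. RNA was sequenced from TMD8 (labelled ABC) and OCI-Ly7 (labelled GCB), human cell lines of diffuse large B cell lymphoma, which both expressed a doxycycline-inducible guide RNA (sgRNA) against PRMT5. Doxycycline was given at 20 ng/ml, and each line was sequenced at 0, 3 and 6 days with 2 libraries each, which makes 12 libraries in 6 groups. The days follow the sample titles, the characteristics and the design text; the labels' treatment text gives different ones. Every group carried the guide, and day 0 of the same line was the control. The sources used here name no cells with another guide, so time in culture, doxycycline and loss of PRMT5 cannot be told apart. Whether a line was 1 clone is not stated. The labels do not say that duplicates came from separate cultures, so p-values measure the spread between these libraries, which may be technical.

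Most introns are removed from a pre-mRNA by the spliceosome, and which splice sites it uses depends on RNA-binding proteins that sit on nearby exons and introns. SR proteins, which carry arginine- and serine-rich tails, mostly promote the use of the exons they bind, while hnRNPs often act against them, and SRPK and CLK kinases phosphorylate the SR tails and so set where these proteins go in the cell. PRMT5, an arginine methyltransferase that works with WDR77, methylates the Sm proteins at the core of the spliceosomal snRNPs and several RNA-binding proteins. Many splicing regulators also limit their own mRNA: their transcripts hold exons whose inclusion sends the mRNA to nonsense-mediated decay.

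PRMT5 itself stood in TMD8 at 64.8 and 60.5 FPKM (fragments per kilobase of transcript, as a share of the library) before doxycycline, 41.3 and 42.0 on day 3 and 49.6 and 54.7 on day 6. In OCI-Ly7 it stood at 37.9 and 46.9, then 29.3 and 32.1, then 21.0 and 19.2 FPKM. The lowest PRMT5 levels came at day 3 in TMD8 and at day 6 in OCI-Ly7. FPKM share 1 total per library, and the 45S pre-ribosomal RNA row took 5222 and 7950 FPKM at day 0 in TMD8 against 17581 to 20452 in the treated TMD8 libraries (11163 and 10374 against 14278 to 20542 in OCI-Ly7). The median log2 change of all genes tested was -0.27 (day 3) and -0.31 (day 6) for TMD8 and -0.12 and -0.13 for OCI-Ly7. Each result is therefore given on FPKM as deposited and again after median-ratio scaling. This scaling divides a library by 1 factor, the median over genes of its value relative to the gene's geometric mean in the line. In TMD8 the factors were 1.204 and 1.1402 at day 0, 0.959 and 0.937 at day 3, then 0.876 and 0.9455 at day 6. Divided by them, PRMT5 in TMD8 was still lowest at day 3, but both day 6 libraries lay slightly above both day 0 libraries. Libraries held 10092 to 11021 genes with at least 1 FPKM. Their absolute depth is unknown, so depth was estimated relative to the first day 0 library of the line. The estimate is the most common ratio of FPKM among genes with very low values. In TMD8 it was 1 and 1.18 at day 0 against 0.54 to 0.74 in the treated libraries. In OCI-Ly7 it was 1 and 1.3 against 0.77 to 0.91, so depth and day cannot be told apart. The B cell markers MS4A1, CD79A, CD79B, CD22, PAX5 and BLK were above 1 FPKM in every library of both lines, with PAX5 the lowest of them (4.45 to 10.7 in TMD8 and 6.87 to 11.3 in OCI-Ly7), and all 5 T and NK cell and all 4 myeloid markers stayed under 1 FPKM in both lines. COL1A1 and EPCAM, of 4 stromal and epithelial markers, reached 3.43 to 5.46 and 3.90 to 5.91 FPKM in OCI-Ly7, with a sum over the 4 of 9.39 to 10.5 in its 6 libraries. In bulk RNA, fewer cells of a kind and less RNA per cell cannot be told apart.

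At day 0 the hnRNPs led the order of levels in both lines. HNRNPA2B1, which binds and sorts many RNAs, was the most abundant, at 444 ± 66.2 FPKM in TMD8 and 584 ± 32.5 in OCI-Ly7 (SD, n = 2). In TMD8 it was followed by HNRNPA1, a general splicing repressor, at 336 ± 73.9 and HNRNPC, which coats uridine tracts, at 282 ± 1.31, and HNRNPC lay within 1 SD of HNRNPA1. In OCI-Ly7 the next were HNRNPK (369 ± 11.3), HNRNPA1 (366 ± 104), HNRNPL (329 ± 1.28) and HNRNPC (326 ± 89.9), in which no gene differed from the next beyond their spread. Of the 6 kinases, SRPK1 stood at rank 27 of 46 in TMD8 and 35 in OCI-Ly7, and the other 5 at rank 38 or below in both. CLK4 was the lowest member with a measurable level, at 4.65 ± 0.334 FPKM in TMD8 and 8.45 ± 0.403 in OCI-Ly7. SRSF10, an SR-like repressor of splicing, was listed at 0 in every library except 1 TMD8 day 3 library (0.0779 FPKM). A listed 0 can be a failed estimate, so it does not show that the gene was not expressed. SRSF10 is the only member that did not reach a mean of 1 FPKM, the minimum for testing, so 45 of 46 were tested in each line. The tables were made separately, so these levels are set side by side and were not tested between lines.

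**Figure D1:**
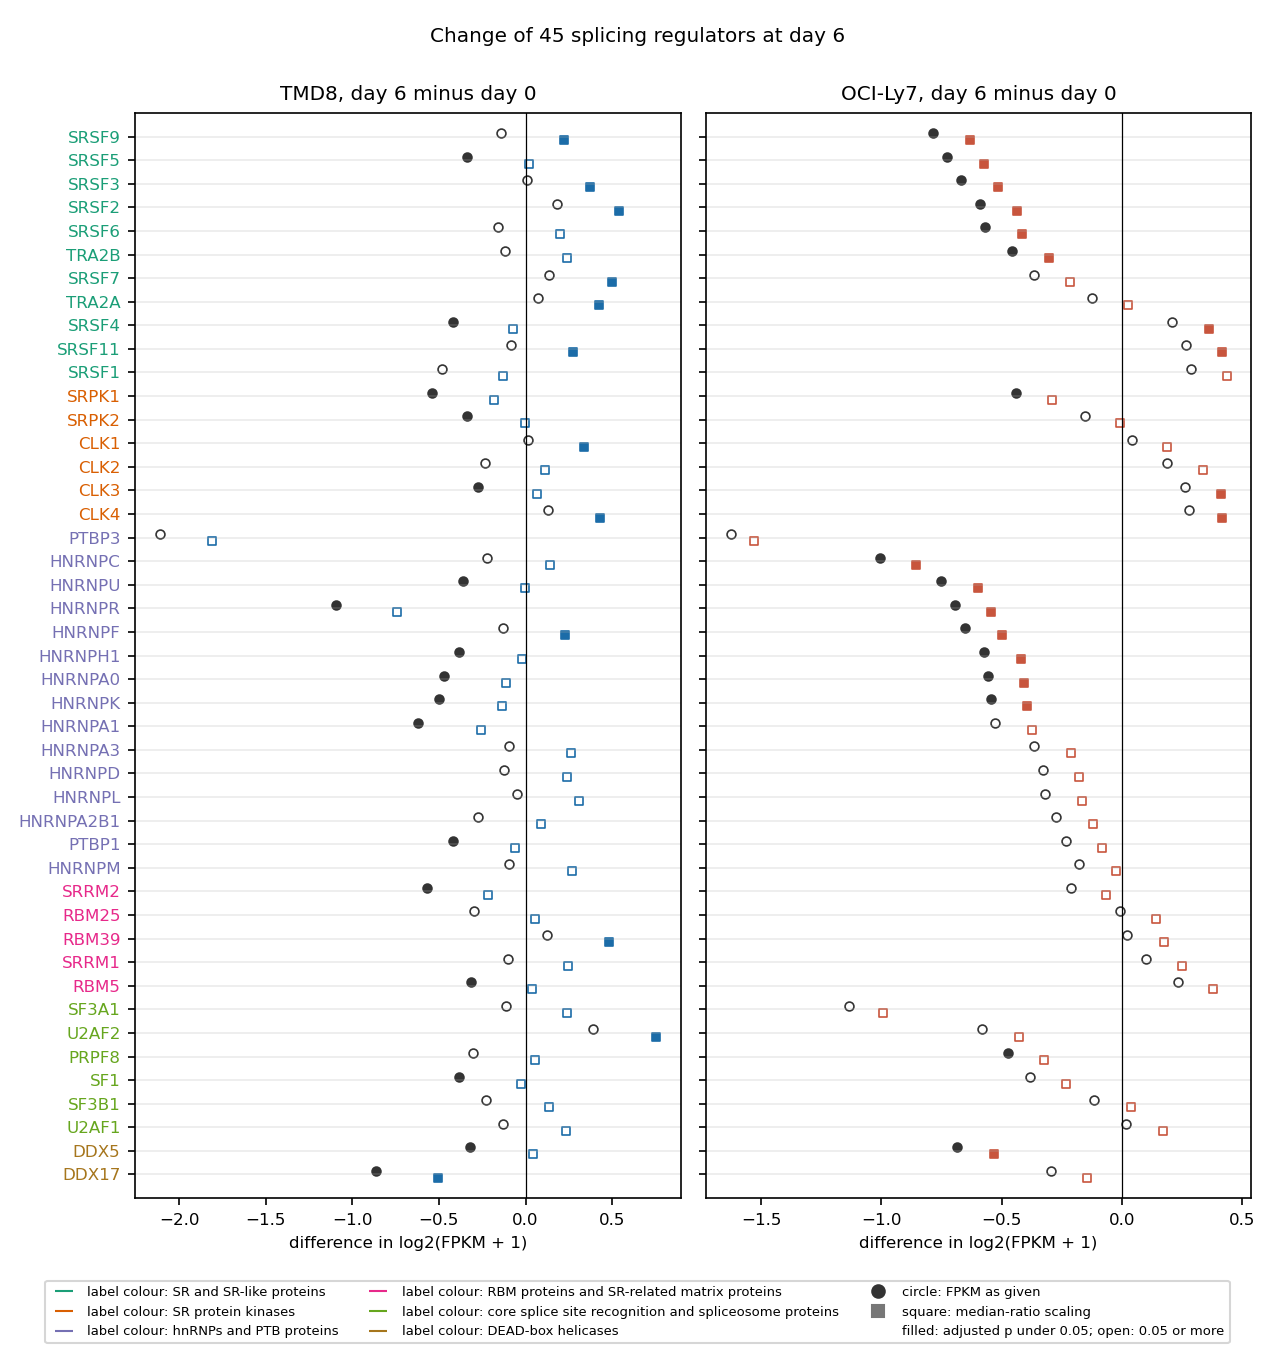
Difference in log2(FPKM + 1) between day 6 and day 0 for the 45 members tested, in TMD8 (left) and OCI-Ly7 (right); circles show FPKM as deposited, squares median-ratio scaling, filled symbols an adjusted p under 0.05, and label colours the role. In OCI-Ly7 16 filled circles lie below 0 and 14 of these stay filled below 0 as squares, while in TMD8 17 filled circles lie below 0 and 11 filled squares lie above it.

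In OCI-Ly7 at day 6, 16 members fell and none rose on FPKM as deposited, and 14 of the 16 also fell after median-ratio scaling. They were 6 of 11 tested SR and SR-like proteins (SRSF2, SRSF3, SRSF5, SRSF6, SRSF9 and TRA2B), 7 of 15 hnRNPs and PTB proteins (HNRNPA0, HNRNPC, HNRNPF, HNRNPH1, HNRNPK, HNRNPR and HNRNPU) and the helicase DDX5. The other two, the kinase SRPK1 and the spliceosome core protein PRPF8, passed only on FPKM as deposited. Of all 11016 genes tested, 9.39% fell and 1.98% rose on FPKM as deposited, and 8.05% fell and 6.71% rose after scaling. The median log2 change over the members was -0.36 against -0.13 over all genes, and after scaling -0.21 against 0.0052. Both day 6 libraries lay below both day 0 libraries for 31 of 45 members (48.6% of all genes tested) and above for 7 (20.7%). The calls come from limma on log2(FPKM + 1) with Benjamini-Hochberg adjustment over all genes, a scale that understates changes of low genes. With no filter on low values none of the 16 passed. The calls also rest on all 4 libraries compared: without either day 0 library 1 or 0 members passed, and without either day 6 library none did, while without a day 3 library 13 did.

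The SR proteins that fell at day 6 in OCI-Ly7 kept between 57.9% and 72.6% of their day 0 mean. SRSF9, one of the smaller SR proteins, stood at 161 and 160 FPKM at day 0, 153 and 130 at day 3, then 99.7 and 86.5 at day 6. Its log2 change to day 6 was -0.79 ± 0.12 (SE; limma adjusted p = 0.0345), and -0.63 ± 0.075 after scaling (adjusted p = 0.0251). Both day 6 libraries were clearly the lowest, and the day 3 libraries lay in between. SRSF5 went from 116 and 111 FPKM at day 0 through 111 and 95.4 at day 3 to 68.4 and 67.8 at day 6, a log2 change of -0.73 ± 0.11 (adjusted p = 0.0345; -0.57 after scaling). SRSF3, which couples splicing to mRNA export, stood at 182 and 190 FPKM, then 177 and 164, then 122 and 112, and its change to day 6 was -0.67 ± 0.096 (adjusted p = 0.0345; -0.52 after scaling). In both genes the day 6 duplicates lay close together and apart from the 4 earlier libraries. SRSF2, known as SC35 and a marker protein of nuclear speckles, stood at 192 and 188, then 182 and 168, then 135 and 116 FPKM, with a change of -0.59 ± 0.11 (adjusted p = 0.0369; -0.44 after scaling). SRSF6 stood at 91.1 and 89.2, then 88.6 and 78.0, then 60.5 and 60.4 FPKM, with a change of -0.57 ± 0.099 (adjusted p = 0.0357; -0.42 after scaling). TRA2B, an SR-like activator that binds GA-rich exons, changed less: it stood at 97.5 and 101, then 94.0 and 85.9, then 73.6 and 70.5 FPKM, with -0.46 ± 0.094 (adjusted p = 0.0418; -0.30 after scaling). In all 3 the day 6 libraries again were the lowest, with no overlap. SRSF7, the export adaptor most like SRSF3, missed the threshold at 174 and 172 FPKM against 135 and 133 at day 6 (-0.37, adjusted p = 0.0523), and TRA2A stood at 86.8 and 78.6 against 74.5 and 76.8 (-0.12, adjusted p = 0.428).

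SRSF11 and SRSF4 were the SR group members called higher at day 6 in OCI-Ly7, and only after scaling. SRSF11, an SR-related protein that interacts with U2AF2, stood at 100.4 and 88.2 FPKM at day 0, 97.2 and 94.0 at day 3, then 110.5 and 116 at day 6. Its log2 change was 0.27 ± 0.10 on FPKM as deposited (adjusted p = 0.133) and 0.42 ± 0.096 after scaling (adjusted p = 0.0481). SRSF4 stood at 68.7 and 64.1, then 73.1 and 61.6, then 77.4 and 76.4 FPKM, a change of 0.21 (adjusted p = 0.249) and 0.36 ± 0.07 after scaling (adjusted p = 0.0365). Both genes were highest in the 2 day 6 libraries, without overlap with day 0. SRSF1, the founding SR protein, could not be placed: it stood at 34.6 and 35.4 FPKM at day 0, 36.0 and 64.9 at day 3, then 63.1 and 29.1 at day 6. One library of each treated day was high and its duplicate was close to or under day 0, and the change of 0.29 ± 0.42 had an adjusted p of 0.656.

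**Figure D2:**
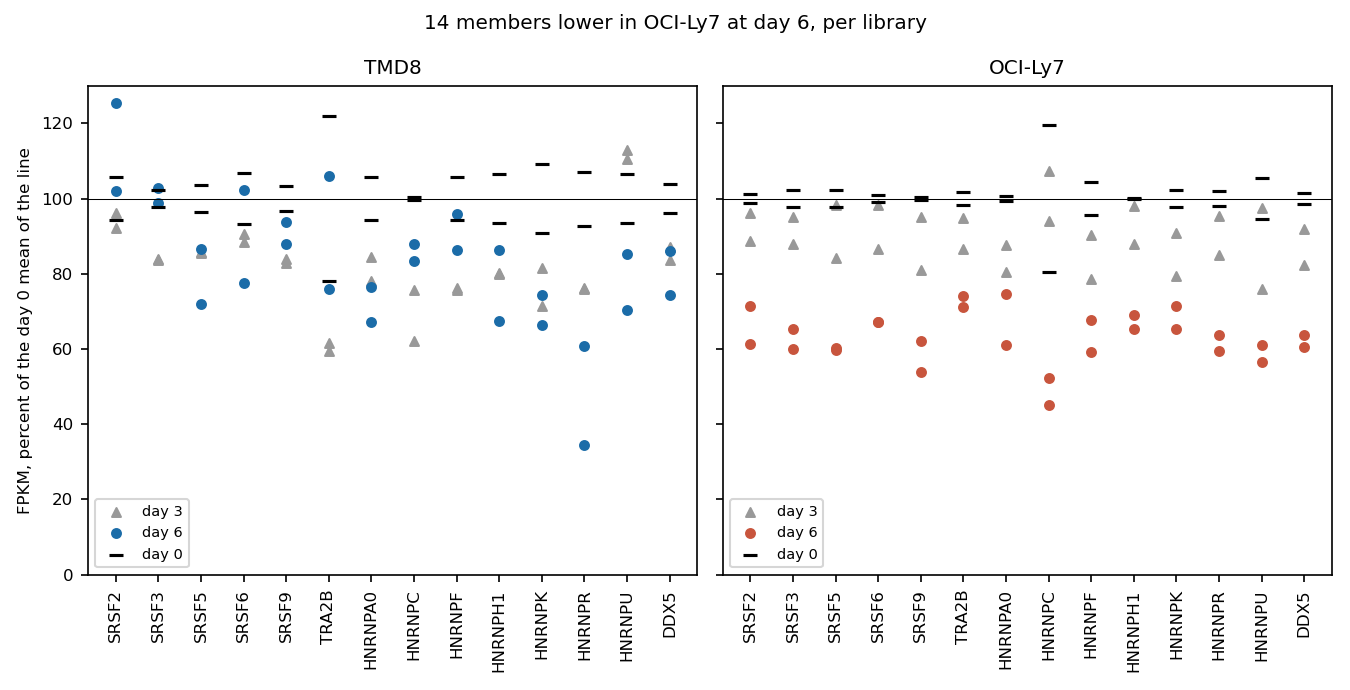
FPKM of each library as a percent of the day 0 mean of its line, for the 14 members that fell in OCI-Ly7 at day 6 under both scalings; black dashes are the day 0 libraries, grey triangles day 3 and coloured circles day 6, in TMD8 (left) and OCI-Ly7 (right). In OCI-Ly7 both day 6 circles lie below both day 0 dashes for each of the 14 genes, with means from 48.7% (HNRNPC) to 72.6% (TRA2B), while in TMD8 they overlap with day 0 for several, such as SRSF3 with a mean of 101%.

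Among the hnRNPs, every one of the 15 tested had a log2 change below 0 at day 6 in OCI-Ly7 under both scalings (7122 of all 11016 genes were below 0, and 5440 after scaling), and 7 passed the test. HNRNPC stood at 262 and 389 FPKM at day 0, 349 and 306 at day 3, then 170 and 147 at day 6, or 48.7% of its day 0 mean. Its change was -1.01 ± 0.20 (adjusted p = 0.041; -0.86 after scaling, adjusted p = 0.0448). The day 0 duplicates differed widely from each other, but both lay above both day 6 libraries. HNRNPU, the scaffold attachment protein that binds chromatin and RNA, stood at 72.3 and 80.5, then 74.5 and 58.1, then 46.7 and 43.3 FPKM, a change of -0.75 ± 0.15 (adjusted p = 0.0391; -0.60 after scaling). HNRNPR stood at 150.4 and 157, then 146 and 131, then 97.7 and 91.4 FPKM, a change of -0.69 ± 0.10 (adjusted p = 0.0345; -0.54 after scaling). Both were lowest at day 6 without overlap. The paralogs HNRNPF and HNRNPH1, which bind runs of G, fell together. HNRNPF stood at 138 and 151, then 130.0 and 113, then 97.5 and 85.4 FPKM (-0.65 ± 0.12, adjusted p = 0.0371; -0.50 after scaling). HNRNPH1 stood at 284 and 283, then 278 and 249, then 195 and 185 FPKM (-0.57 ± 0.094, adjusted p = 0.0347; -0.42 after scaling). The paralogs kept 63.5% and 67.1% of day 0. HNRNPK, which binds C-rich RNA, stood at 361 and 377, then 335 and 293, then 264 and 241 FPKM (-0.55 ± 0.10, adjusted p = 0.0384; -0.39 after scaling). HNRNPA0 stood at 101 and 102, then 89.1 and 81.9, then 76.0 and 62.2 FPKM (-0.56 ± 0.12, adjusted p = 0.0461; -0.41 after scaling). In these last, too, day 6 lay wholly below day 0, with day 3 in between.

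The hnRNPs that did not pass in OCI-Ly7 had changes from -0.18 (HNRNPM) to -1.63 (PTBP3). HNRNPA2B1, the most abundant, stood at 607 and 561 FPKM at day 0 and 499.5 and 466 at day 6 (-0.27, adjusted p = 0.258), and PTBP1, the polypyrimidine tract repressor, at 80.0 and 76.7 against 71.1 and 62.2 (-0.23, adjusted p = 0.256). HNRNPA1 was wide in its duplicates, with 292 and 440 FPKM at day 0, 456 and 206 at day 3, then 272 and 227 at day 6. PTBP3 stood between 0.67 and 1.23 FPKM in 5 OCI-Ly7 libraries and at 21.3 in the second day 0 library (log2 change -1.63 ± 1.12, adjusted p = 0.348).

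Of the 6 kinases, SRPK1 fell on FPKM as deposited while CLK3 and CLK4 rose after scaling. SRPK1 stood at 41.2 and 42.9 FPKM at day 0, 41.7 and 40.3 at day 3, then 31.9 and 29.5 at day 6 (-0.44 ± 0.093, adjusted p = 0.0429; after scaling -0.29, adjusted p = 0.0517). CLK3 stood at 29.2 and 29.9, then 27.5 and 22.9, then 37.2 and 34.2 FPKM, a change of 0.26 (adjusted p = 0.18) and 0.41 ± 0.068 after scaling (adjusted p = 0.0297). CLK4 stood at 8.74 and 8.17, then 8.36 and 6.56, then 10.2 and 10.8 FPKM, a change of 0.28 (adjusted p = 0.186) and 0.42 ± 0.094 after scaling (adjusted p = 0.0464). For both CLK genes day 6 lay above day 0 and day 3, while SRPK1 lay below. CLK1 (-0.04 at day 3, 0.04 at day 6), CLK2 (0.19 at day 6) and SRPK2 (-0.15 at day 6) did not pass under either scaling.

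Of the paired helicases, DDX5 fell and its paralog DDX17 did not pass in OCI-Ly7. DDX5 stood at 277 and 285 FPKM at day 0, 258 and 232 at day 3, then 179 and 170.0 at day 6, a change of -0.68 ± 0.095 (adjusted p = 0.0345; -0.53 ± 0.054 after scaling, adjusted p = 0.0235). DDX17 stood at 83.6 and 83.1, then 82.2 and 75.8, then 68.4 and 67.0 FPKM (-0.30 ± 0.09, adjusted p = 0.0821). In both genes the day 6 libraries were the lowest. Among core factors, PRPF8, the scaffold of the catalytic centre, stood at 50.7 and 58.8 FPKM against 38.8 and 39.3 at day 6 (-0.47 ± 0.11, adjusted p = 0.0471; after scaling -0.32, adjusted p = 0.0705). SF3B1 and SF3A1, both of the U2 snRNP, did not pass: SF3B1 stood at 109 and 114 against 102 and 103 FPKM (-0.11, adjusted p = 0.443). SF3A1 stood at 11.9 and 25.0 FPKM at day 0, 11.1 and 8.94 at day 3, then 8.20 and 6.59 at day 6, a change of -1.13 ± 0.33 (adjusted p = 0.0771) with day 0 duplicates wide apart. The U2AF subunits, which bind the end of the intron, and the branch point protein SF1 did not pass either (U2AF1 0.02, U2AF2 -0.58, SF1 -0.38). None of the 5 RBM and SR-related matrix proteins passed, and their changes lay between -0.21 (SRRM2) and 0.23 (RBM5), with 2 of 5 at an unadjusted p under 0.05 after scaling and 0 before it.

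To show the DNA before genes that fell together in OCI-Ly7, the 250 bases before the start of 4 of them are printed, 5′ to 3′ on the strand of the gene, from RefSeq on GRCh38.p14 (the expression tables used hg19). SRSF3, SRSF9 and HNRNPF fell under both scalings and also differed between the lines, and DDX5 is the one among those that fell whose window holds both motifs marked here. Capitals mark CCGGAAG (a core ETS-factor motif, read as CTTCCGG on the other strand) and CACGTG (the E-box of MYC-type factors).
SRSF3 (chr6:36594112-36594361, strand +): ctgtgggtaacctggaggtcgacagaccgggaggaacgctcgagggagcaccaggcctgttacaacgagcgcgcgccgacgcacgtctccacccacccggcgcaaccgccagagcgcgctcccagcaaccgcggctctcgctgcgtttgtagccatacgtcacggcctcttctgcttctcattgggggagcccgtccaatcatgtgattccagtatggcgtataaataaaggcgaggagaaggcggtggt
SRSF9 (chr12:120469749-120469998, strand -): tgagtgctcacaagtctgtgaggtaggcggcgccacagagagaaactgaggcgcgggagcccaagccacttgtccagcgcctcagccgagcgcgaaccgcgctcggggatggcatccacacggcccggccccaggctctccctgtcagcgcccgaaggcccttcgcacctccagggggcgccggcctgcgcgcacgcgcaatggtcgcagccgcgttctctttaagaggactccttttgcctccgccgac
HNRNPF (chr10:43408858-43409107, strand -): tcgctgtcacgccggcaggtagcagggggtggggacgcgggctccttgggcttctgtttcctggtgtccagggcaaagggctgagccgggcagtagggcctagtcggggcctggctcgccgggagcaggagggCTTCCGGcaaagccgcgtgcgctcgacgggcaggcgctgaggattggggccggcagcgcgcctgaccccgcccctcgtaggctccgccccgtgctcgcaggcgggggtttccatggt
DDX5 (chr17:64506639-64506888, strand -): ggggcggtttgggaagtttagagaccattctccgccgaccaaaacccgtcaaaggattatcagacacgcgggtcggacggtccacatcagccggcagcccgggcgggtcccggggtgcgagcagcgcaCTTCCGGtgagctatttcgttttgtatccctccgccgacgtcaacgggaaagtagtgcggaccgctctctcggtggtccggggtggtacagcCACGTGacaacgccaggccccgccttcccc
Promoters of this length were matched for 42 of 46 members; SRSF2, TRA2A, RBM39 and HNRNPA1 had no entry. On either strand CACGTG was found in 7 of 42 members (16.7%), against 9.76% of 7186 genes tested in both lines and 6.34% of all 35116 promoters. The 7 were CLK2, CLK4, HNRNPA3, HNRNPD, HNRNPM, SF3B1 and DDX5, of which only DDX5 was called lower in OCI-Ly7 at day 6. CCGGAAG was found in 7 of 42 (16.7%) against 19.1% and 8.52%. The motifs do not overlap in letters. Another motif was searched earlier and is not reported. A match is a description of these letters and not a site of binding, and the SRSF3 and SRSF9 windows hold neither.

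At day 3 in OCI-Ly7 no member passed in limma on either scale, with 2 at an unadjusted p under 0.05 before scaling and 1 after it. Of all genes, 0.145% passed before and 0.118% after scaling. The members' median log2 change was -0.13 on FPKM as deposited, against -0.12 over all genes, and -0.000875 after scaling, against -0.0077. Between day 3 and day 6, none passed before scaling (19 at an unadjusted p under 0.05, 0.218% of all genes passed) and 15 passed after it, 13 lower and 2 higher (4.52% and 4.23% of all genes). The 13 were SRSF2, SRSF3, SRSF5, SRSF6, SRSF9, TRA2B, SRPK1, HNRNPC, HNRNPF, HNRNPH1, HNRNPR, HNRNPU and DDX5, and the 2 were CLK3 and CLK4. On the scaled values, SRSF5 changed by -0.0058 from day 0 to day 3 and by -0.57 ± 0.062 from day 3 to day 6 (adjusted p = 0.0332). SRSF3 changed by 0.0028 and then by -0.52 ± 0.062 (adjusted p = 0.0332), and HNRNPR by -0.02 and then by -0.52 ± 0.057 (adjusted p = 0.0332). PRMT5 over the same intervals changed by -0.32 (adjusted p = 0.856) and -0.57 (adjusted p = 0.0636).

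In TMD8 at day 6 the direction of the members depended on the scaling. On FPKM as deposited 17 of 45 fell and none rose, among genes of which 51.7% fell and 3.89% rose. After median-ratio scaling 11 rose and 1 fell, against 15.4% and 13.5% of all genes. Those that rose were SRSF2, SRSF3, SRSF7, SRSF9, SRSF11, TRA2A, CLK1, CLK4, HNRNPF, RBM39 and U2AF2, and DDX17, which fell, was the only member called in the same direction under both. The members' median log2 change was -0.23 against -0.31 over all genes, and 0.11 against -0.00041 after scaling. Rescaling on the sum over all but ribosomal, small RNA and histone genes left 4 higher and 3 lower. Both day 6 libraries lay below both day 0 libraries for 25 of 45 members (73.4% of all genes) and above them for 1, U2AF2 (7.88%). Without the first day 0 library 3 members fell, and without the first day 6 library 6 fell and 2 rose.

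DDX17, a coactivator helicase, fell in TMD8 from 78.3 and 75.3 FPKM at day 0 through 56.6 and 54.0 at day 3 to 36.4 and 47.8 at day 6. The log2 change to day 6 was -0.87 ± 0.13 (limma adjusted p = 0.0038) and -0.51 ± 0.096 after scaling (adjusted p = 0.0188). The 3 days did not overlap and followed each other downwards. HNRNPR stood at 68.6 and 59.4 FPKM, then 48.7 and 48.7, then 39.0 and 22, a change of -1.10 ± 0.24 (adjusted p = 0.0118) that missed the threshold after scaling (-0.74, adjusted p = 0.0992). Its day 6 duplicates lay far apart, though both were below the other libraries. HNRNPA1 stood at 389 and 284 FPKM, then 205 and 216, then 215 and 216, with a change of -0.62 ± 0.14 (adjusted p = 0.0128; after scaling -0.26, adjusted p = 0.188). PTBP3, the haematopoietic PTB paralog, stood at 27.9 and 5.40, then 4.26 and 20.6, then 1.93 and 2.38 FPKM, and its change of -2.11 ± 0.86 did not pass (adjusted p = 0.0772). Its duplicates spread so widely at days 0 and 3 that only day 6 was uniformly low.

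U2AF2, the large U2AF subunit that binds the polypyrimidine tract, stood at 83.2 and 70.6 FPKM at day 0 in TMD8, 61.2 and 69.0 at day 3, then 85.0 and 120 at day 6. Its log2 change was 0.39 ± 0.17 (adjusted p = 0.0938) and 0.75 ± 0.15 after scaling (adjusted p = 0.0196). The day 6 libraries were both above day 0, the first by little. SRSF2 stood at 119 and 106 FPKM, then 108 and 104, then 115 and 141 (0.18, adjusted p = 0.206; after scaling 0.54 ± 0.078, adjusted p = 0.0103). SRSF7 stood at 104 and 96.5, then 86.2 and 85.5, then 103 and 118 FPKM (0.14, adjusted p = 0.204; after scaling 0.50 ± 0.056, adjusted p = 0.0068). RBM39, a U2AF-related coactivator, stood at 59.0 and 51.9, then 55.5 and 54.2, then 54.6 and 66.5 FPKM (0.12, adjusted p = 0.368; after scaling 0.48 ± 0.076, adjusted p = 0.0126). In these 3 genes the FPKM of day 6 and day 0 overlapped, and none of them was called before scaling. SRSF3 was nearly level at 122 and 117 FPKM against 118 and 123 at day 6 (0.01, adjusted p = 0.881; after scaling 0.37, adjusted p = 0.0095).

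By role, 7 of 15 hnRNPs and PTB proteins, 3 of 6 kinases, 2 of 11 SR and SR-like proteins, 2 of 5 RBM and matrix proteins, 1 of 6 core factors and both helicases fell on FPKM as deposited in TMD8, where 51.7% of all genes fell. Besides those above these were HNRNPA0, HNRNPH1, HNRNPK, HNRNPU, PTBP1, SRPK1, SRPK2, CLK3, SRSF4, SRSF5, RBM5, SRRM2, SF1 and DDX5. After scaling, 6 of 11 SR and SR-like proteins rose and none fell, while 1 of 15 hnRNPs and PTB proteins rose, among genes of which 15.4% rose. SRPK1 stood at 56.1 and 50.5 FPKM at day 0 against 34.1 and 38.7 at day 6 (-0.54 ± 0.089, adjusted p = 0.0052), and missed the threshold after scaling (-0.18, adjusted p = 0.0621). CLK4 was nearly level on FPKM as deposited, at 4.89 and 4.41 against 4.74 and 5.65, and rose after scaling (0.43 ± 0.074, adjusted p = 0.0152).

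At day 3 in TMD8, 15 members fell and none rose on FPKM as deposited (41.5% and 1.5% of all genes), and none passed after scaling, with 6 at an unadjusted p under 0.05 and 0.22% of all genes passing. The 15 were SRSF3, SRSF9, SRPK1, SRPK2, CLK3, HNRNPA0, HNRNPA1, HNRNPA2B1, HNRNPC, HNRNPF, HNRNPK, PTBP1, U2AF1, SRRM1 and DDX17. Without any 1 of the day 0 or day 3 libraries 0 or 1 member passed, and without a day 6 library 27 or 28 did. HNRNPC stood at 175 and 214 FPKM at day 3 against 283 and 281 at day 0 (-0.54 ± 0.098, adjusted p = 0.0212; after scaling -0.24, adjusted p = 0.461) and at 235 and 248 at day 6. The levels at day 3 were the lowest of the 3 days for this gene in TMD8. From day 3 to day 6, SRSF3 rose from 100.1 and 99.8 to 118 and 123 FPKM (0.26 ± 0.057, adjusted p = 0.0465; after scaling 0.32, adjusted p = 0.0248). HNRNPU fell from 109 and 107 to 67.9 and 82.1 FPKM (-0.52 ± 0.11, adjusted p = 0.0427; after scaling -0.47, adjusted p = 0.0253). They were the only members called before scaling (3.38% of all genes rose and 4.47% fell), and after it SRSF7, HNRNPF and U2AF2 also rose (6.56% of all genes rose and 5.1% fell). Without any 1 of the day 0 or day 3 libraries neither count remained above 0 before scaling.

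The change at day 6 differed between the lines for 10 of 45 members on FPKM as deposited, by the test of the difference itself in a fit over all 12 libraries (24.7% of 9688 genes). In this difference, OCI-Ly7 minus TMD8, 6 were lower (6.3% of all genes) and 4 higher (18.4%). The 6 were SRSF2, SRSF3, SRSF7, SRSF9, HNRNPC and HNRNPF, and all 6 also passed after scaling. The 4 were SRSF4, CLK3, RBM5 and DDX17, of which RBM5 missed the threshold after scaling. After scaling 15 were lower (19% of all genes) and 3 higher (14.1%), and the members' median difference was -0.26 against -0.021 over all genes (before scaling -0.05 against 0.16).

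**Figure D3:**
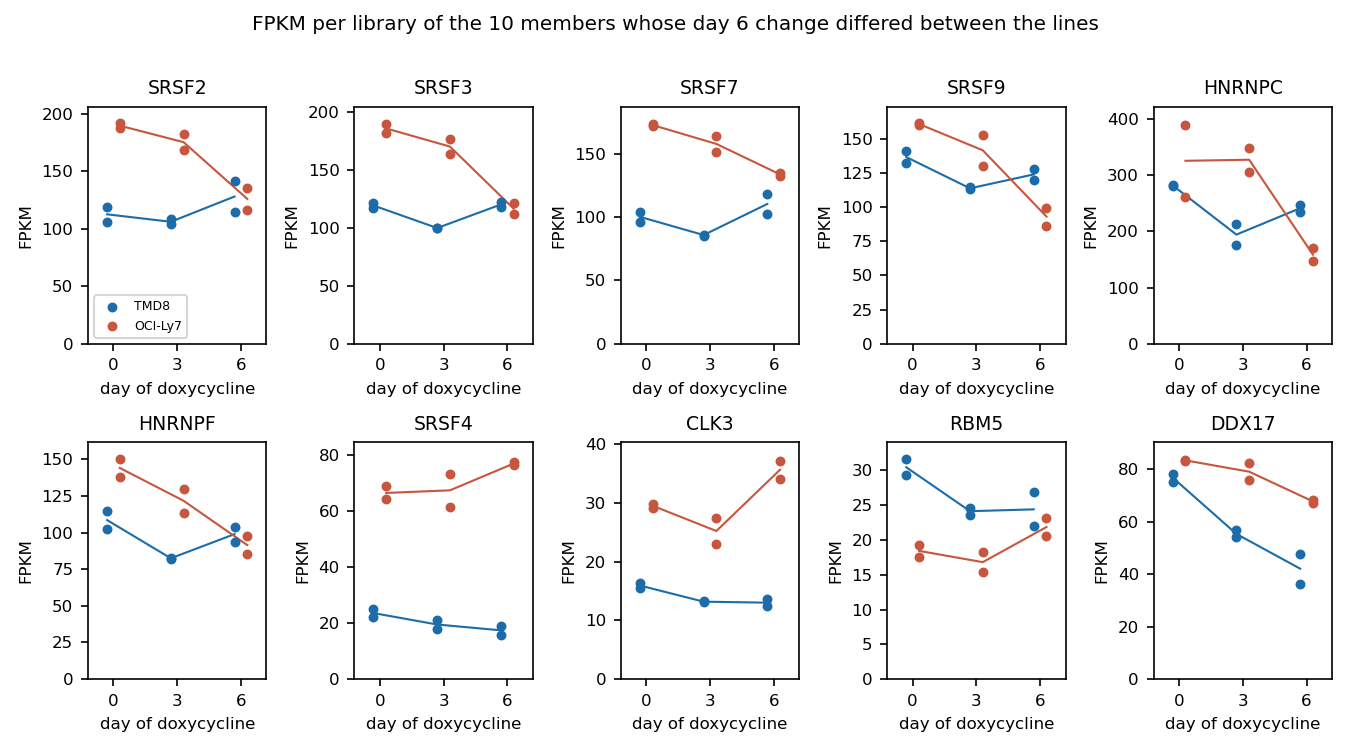
FPKM as deposited in each library (points) with lines through the means of the 2 libraries, by day of doxycycline, for the 10 members whose day 6 change differed between TMD8 (blue) and OCI-Ly7 (red). SRSF3 goes from 182 and 190 to 122 and 112 FPKM in OCI-Ly7 and stays between 99.8 and 123 in TMD8. On this scale SRSF4, CLK3 and RBM5 lie above day 0 in OCI-Ly7 and below it in TMD8 at day 6.

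SRSF3 gave the difference with the smallest p among the members. It was -0.68 ± 0.10 (SE; 95% confidence interval -0.91 to -0.45; limma adjusted p = 0.0046), and -0.89 after scaling: its day 6 mean was 101% of day 0 in TMD8 and 62.7% in OCI-Ly7. The differences for SRSF2 (-0.77 ± 0.16, adjusted p = 0.0122) and SRSF9 (-0.65 ± 0.14, adjusted p = 0.0127) had intervals of -1.14 to -0.40 and -0.96 to -0.33. SRSF2, SRSF3 and SRSF9 kept the call when each of the 12 libraries was left out in turn. SRSF7 (-0.50 ± 0.12, adjusted p = 0.017), HNRNPF (-0.52 ± 0.15, adjusted p = 0.0343) and HNRNPC (-0.78 ± 0.25, adjusted p = 0.0477) lost it in 3, 8 and 9 of the 12 fits. After scaling SRSF2, SRSF3, SRSF9 and HNRNPF were called higher in TMD8 and lower in OCI-Ly7 at day 6, as were 2.38% of 9688 genes tested in both. On FPKM as deposited none of these was called in TMD8, where the log2 changes were 0.18, 0.01, -0.14 and -0.13. SRSF9 there stood at 141 and 132 FPKM at day 0 and 120 and 128 at day 6. Its day 6 libraries thus both lay below day 0, as for 73.4% of all genes.

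On the other side, SRSF4 had a difference of 0.63 ± 0.17 (adjusted p = 0.0312). In TMD8 it stood at 24.9 and 22.2 FPKM at day 0 and 15.7 and 19.1 at day 6, below day 0, and in OCI-Ly7 its day 6 libraries lay above day 0. DDX17 (0.57 ± 0.16, adjusted p = 0.0325), CLK3 (0.54 ± 0.14, adjusted p = 0.0233) and RBM5 (0.55 ± 0.17, adjusted p = 0.0466; after scaling 0.34, adjusted p = 0.0769) followed. RBM5, a regulator of exon choice in apoptosis genes, stood at 31.6 and 29.3 FPKM against 21.9 and 26.9 at day 6 in TMD8 and at 19.3 and 17.5 against 20.6 and 23.1 in OCI-Ly7. CLK3 stood at 16.3 and 15.6 FPKM against 12.4 and 13.7 in TMD8. On FPKM as deposited these genes thus lay below day 0 in TMD8, as did 73.4% of all genes, while in OCI-Ly7 all but DDX17 lay above it. After scaling the TMD8 changes of CLK3 and RBM5 were small and upwards, and neither was called. SRSF4, CLK3, DDX17 and RBM5 lost the call in 7, 6, 8 and 9 of the 12 fits that left out a library.

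**Figure D4:**
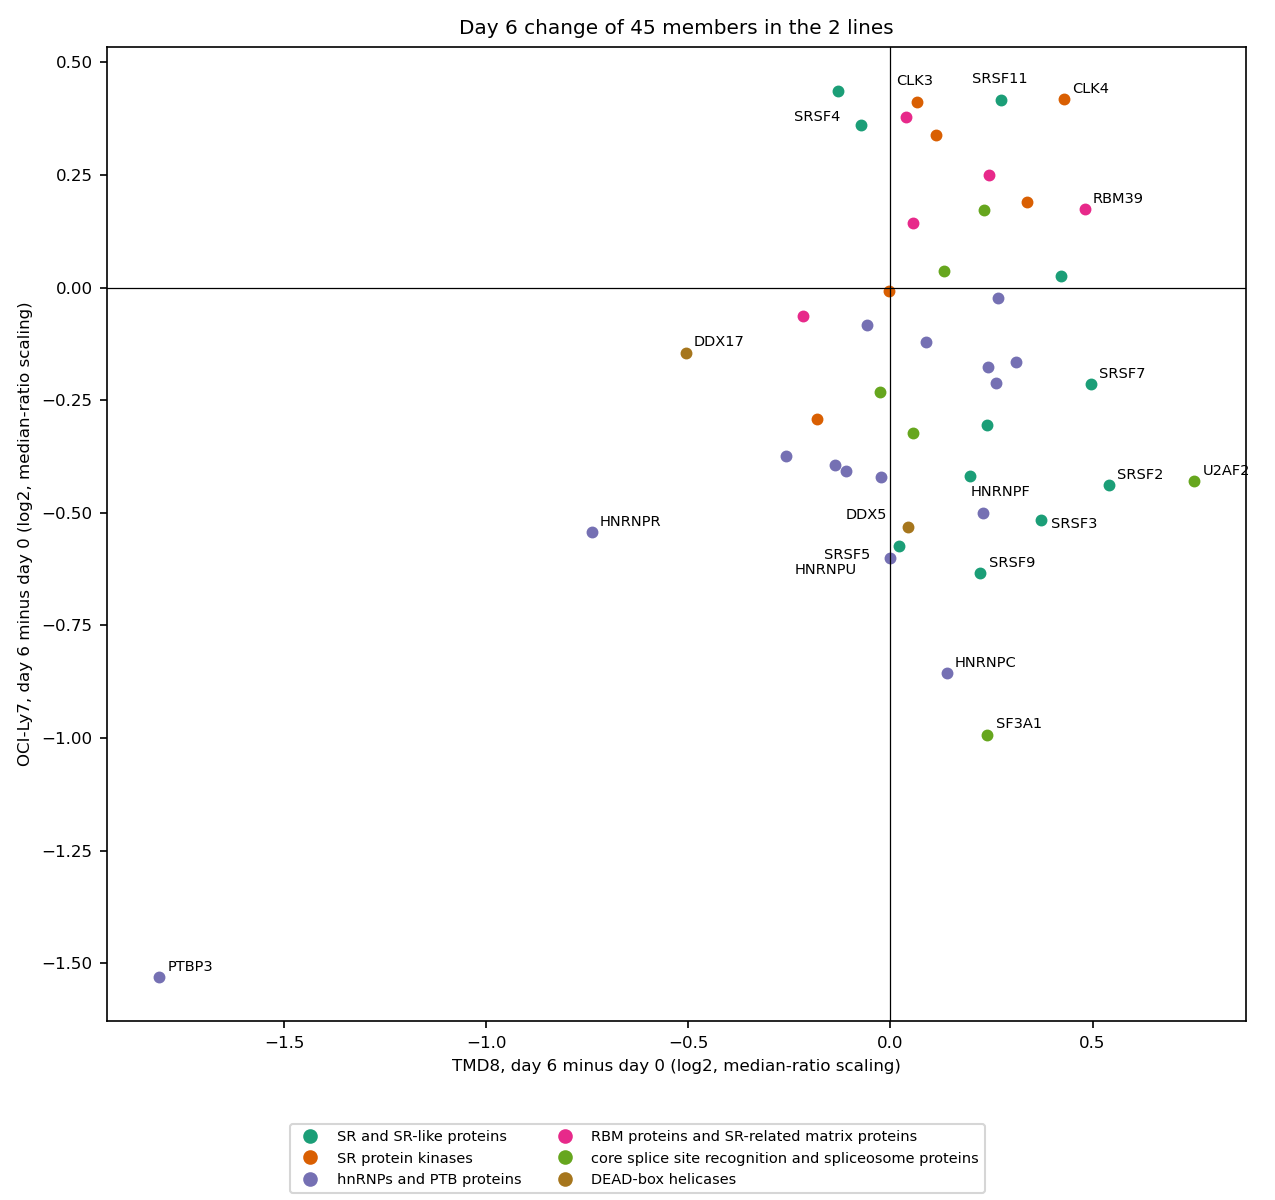
Day 6 change of each of the 45 members after median-ratio scaling, TMD8 on the horizontal and OCI-Ly7 on the vertical axis (difference in log2(FPKM + 1)), coloured by role. SRSF2, SRSF3, SRSF7, SRSF9 and HNRNPF lie to the right of 0 and below it, CLK4 and SRSF11 lie above 0 on both axes, and PTBP3 lies far below 0 on both.

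Called in both lines in the same direction on FPKM as deposited were 8 members, all lower: SRSF5, SRPK1, HNRNPA0, HNRNPH1, HNRNPK, HNRNPR, HNRNPU and DDX5. Of 9688 genes tested in both lines, 5.19% were called lower in both. After scaling no member was lower in both lines (0.754% of genes), and SRSF11 and CLK4 were higher in both (0.784%). SRSF11 in TMD8 stood at 55.7 and 50.3 FPKM at day 0 and 46.2 and 53.9 at day 6 (-0.08; after scaling 0.27, adjusted p = 0.03). SRSF5 in TMD8 stood at 82.6 and 76.8 against 57.3 and 69.0 FPKM (-0.34, adjusted p = 0.0277; after scaling 0.02, adjusted p = 0.823).

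The other genes of splicing were taken from 4 lists with 125 genes, of which 121 were tested in each line. At day 6 in OCI-Ly7 16 of 121 fell and 1 rose on FPKM as deposited, and 17 fell and 9 rose after scaling; their median was -0.27, and -0.12 after scaling. Of all genes 9.39% fell and 1.98% rose, and after scaling 8.05% fell and 6.71% rose. Of 44 other spliceosome proteins 9 fell, of 40 other hnRNP-like proteins 5 fell, of 21 other SR-like proteins and kinases 2 fell and 1 rose, and of 16 exon junction and nonsense-mediated decay genes none passed (7 at an unadjusted p under 0.05; after scaling 2 rose and 1 fell). RBM3, a cold-induced RNA-binding protein, stood at 50.7 and 51.8 FPKM at day 0, 47.5 and 41.3 at day 3, then 28.1 and 26.2 at day 6 (-0.90 ± 0.11, adjusted p = 0.0345). TARDBP, which represses cryptic exons, stood at 56.1 and 56.3, then 54.4 and 46.7, then 34.9 and 30.4 FPKM (-0.77 ± 0.12, adjusted p = 0.0345), and EFTUD2, the GTPase of the U5 snRNP, changed by -0.92 ± 0.14 (adjusted p = 0.0345). These 3 followed the course of the SR proteins that fell, with the lowest values at day 6. NKTR, an SR-related cyclophilin, rose from 21.1 and 16.6 to 28.4 and 35.2 FPKM (0.73 ± 0.17, adjusted p = 0.0481).

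In TMD8 at day 6, 58 of the 121 fell and 3 rose on FPKM as deposited, and 37 rose and 11 fell after scaling, with medians of -0.28 and 0.08. Of all genes 51.7% fell and 3.89% rose, and after scaling 15.4% rose and 13.5% fell. TAF15, a FET family protein, fell under both scalings, from 122 and 107 FPKM at day 0 through 77.4 and 75.5 to 51.5 and 49.3 at day 6 (-1.17 ± 0.078, adjusted p = 0.0014; -0.81 after scaling). HNRNPDL, a paralog of HNRNPD that regulates its own splicing, rose under both, from 71.7 and 64.3 to 78.9 and 84.7 FPKM (0.26 ± 0.076, adjusted p = 0.0282; 0.62 after scaling). The spliceosome gene PRPF38B also rose, from 26.8 and 23.1 to 33.2 and 36.2 FPKM (0.46 ± 0.09, adjusted p = 0.0084). THRAP3, an SR-related protein, fell in both lines under both scalings, from 40.2 and 33.1 to 21.8 and 24.6 FPKM in TMD8 (-0.63, adjusted p = 0.0057) and from 49.9 and 55.5 to 33.6 and 33.6 in OCI-Ly7 (-0.63, adjusted p = 0.0401).

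Duplicates differed by over 1.5-fold in 13 of 258 pairs of member and group with a mean of at least 10 FPKM (5.04%), against 3.82% of such pairs over all genes. The 13 pairs belong to 8 members: PTBP3 (3 groups), SRSF1 (3), HNRNPA1 (2), SF3A1, HNRNPD, HNRNPL, TRA2B and HNRNPR. HNRNPL in OCI-Ly7 stood at 329 and 330.4 FPKM at day 0 but at 155 and 265 at day 3, and HNRNPD there at 343 and 183. TRA2B in TMD8 stood at 37.7 and 58.9 FPKM at day 0, 28.8 and 29.8 at day 3, then 51.2 and 36.7 at day 6, an overlap of day 0 and day 6 in either order.

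**Figure D5:**
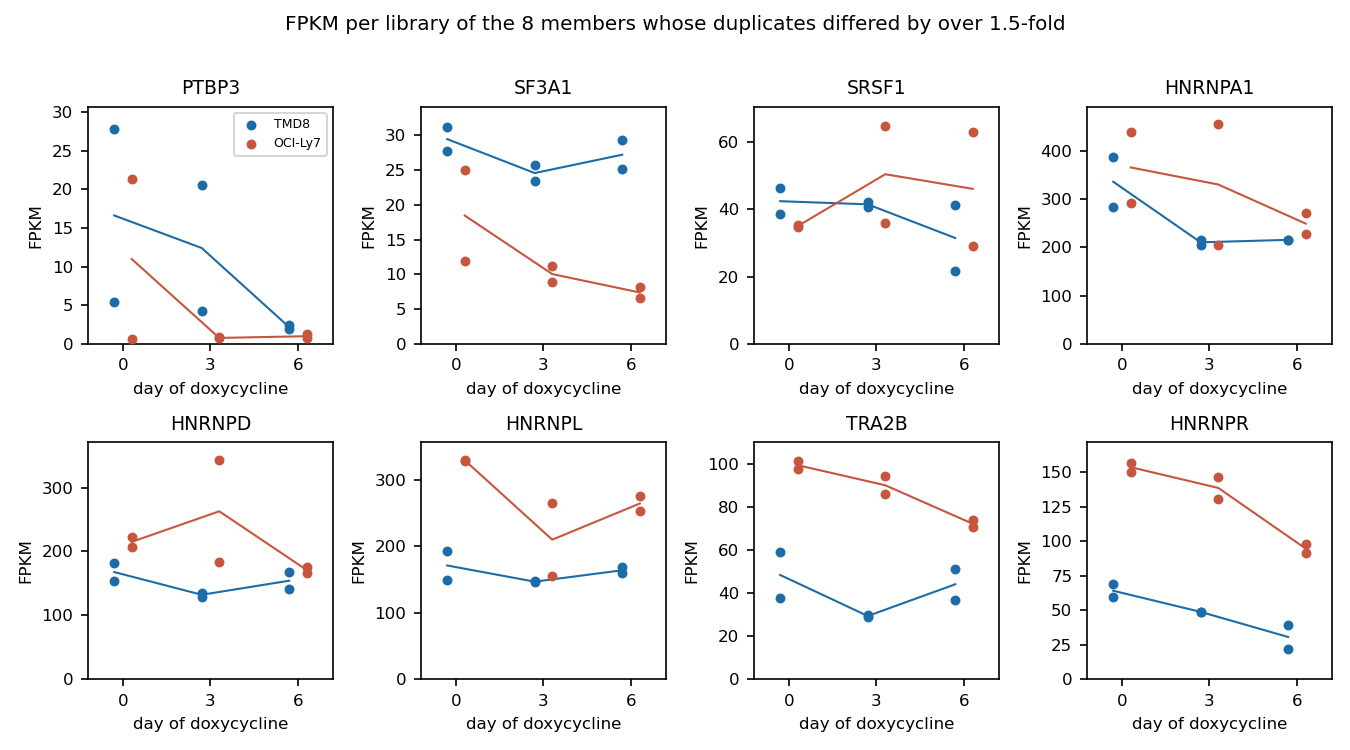
FPKM in each library (points) with lines through the means, by day of doxycycline in TMD8 (blue) and OCI-Ly7 (red), for the 8 members whose duplicates differed by over 1.5-fold in at least 1 group with a mean of at least 10 FPKM. SRSF1 in OCI-Ly7 has 1 high and 1 low library at each treated day, and PTBP3 has single high libraries at days 0 and 3.

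The members also share features of annotation that their choice did not use. In GENCODE v29, 40 of 46 (87%) have at least 1 transcript annotated for nonsense-mediated decay, against 46.8% of 8692 protein-coding genes tested in both lines, and 39 (84.8%) have a retained-intron transcript against 60.9%. The members have a median of 13 annotated transcripts against 8 in those genes, and the part of this in both shares was not tested. RBM39 has 15 decay and 16 retained-intron transcripts of 45, HNRNPU 9 and 10 of 31, and SRSF7 6 and 2 of 12. HNRNPA0, HNRNPF, HNRNPA3, CLK2, PTBP3 and PRPF8 have no decay transcript. The tables give 1 value per gene, so shares of such transcripts were not analysed here. Exons of 10 members overlap another row that reached 1 FPKM: SRSF2, SRSF9, SRPK2, CLK3, HNRNPA2B1, HNRNPK, HNRNPU, RBM5, DDX5 and DDX17. GATC, on the strand opposite to SRSF9, reached 2.90 to 28.2 FPKM, and CEP95, opposite to DDX5, 7.73 to 33.1 FPKM. CBX3, opposite to HNRNPA2B1, stood at 80.9 to 247 FPKM, and EDC3, opposite to CLK3, at 8.46 to 18.1. RBM6 overlaps RBM5 on the same strand and stood at 11.6 to 21.5 FPKM. MIR3064 and MIR5047 overlap DDX5, also on its strand, at 16.9 to 85.0 and 36.2 to 106 FPKM. The strand setting is not stated in the sources used here, so reads of opposite-strand pairs may not have been told apart. For same-strand pairs no strand setting could separate reads of shared exon sequence.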

How the data were processed

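Gene expression was taken from RNA sequencing of 12 libraries of 2 lymphoma lines. Per the labels, RNA was taken with RNeasy Plus kits and libraries were made with a TruSeq RNA kit. The submitters' processing notes name HISAT, StringTie and the build hg19, with no versions. The deposited tables hold FPKM by gene symbol as computed by the authors, 1 table for each line. FPKM are not counts, and the absolute depth is unknown.

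The members, the 4 lists of other splicing genes and the tests were chosen with earlier results of these data known. Days were compared within a line with limma 3.58.1 (R 4.3.3, trend) on log2(FPKM + 1). Tested were genes averaging 1 FPKM or more in that line's libraries (10456 in TMD8, 11016 in OCI-Ly7). A single spread was estimated over the 3 days (3 residual degrees of freedom), with Benjamini-Hochberg adjustment over all genes tested and a threshold of 0.05. The difference between lines was fitted over 12 libraries (9688 genes). The scripts were tested on simulated data. Members with full values were those called at day 6 in the same direction under both scalings, the 4 with the largest scaled change each way per line, and those that differed between lines, besides PRMT5; others were named after their values were seen. Of the other lists, up to 3 genes per list, line and direction called under both scalings could be named, and not all are printed. Alternatives were median-ratio scaling, rescaling on the sum over all but ribosomal, small RNA and histone genes, a pseudocount of 0.1, no filter, a replicate block and leaving out each library. No sample was left out of the main tests, and identical duplicates were not found. One B cell marker fixed for the check of the lines is not reported here.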

Additional observations from a re-analysis of the deposited data

Results flagged for a closer look

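The day 6 changes of 10 members differed between the lines by the test of the difference (OCI-Ly7 minus TMD8, log2 of FPKM + 1, limma over 12 libraries). They were -0.77 for SRSF2, -0.68 for SRSF3, -0.5 for SRSF7, -0.65 for SRSF9, -0.78 for HNRNPC and -0.52 for HNRNPF, which were lower in OCI-Ly7. They were 0.63 for SRSF4, 0.54 for CLK3, 0.55 for RBM5 and 0.57 for DDX17, which were higher. Of all genes tested, 24.7% differed between the lines in this way.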

How the results depend on the processing

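On FPKM as deposited, 15 (TMD8 day 3), 17 (TMD8 day 6), 2 (TMD8 day 6 against day 3), 0 (OCI-Ly7 day 3), 16 (OCI-Ly7 day 6), 0 (OCI-Ly7 day 6 against day 3) and 10 (difference between lines) members passed. Median-ratio scaling moved these counts to 0 at TMD8 day 3, 5 at TMD8 day 6 against day 3, 15 at OCI-Ly7 day 6 against day 3 and 18 for the difference. At TMD8 day 6 it turned 17 lower and 0 higher into 1 lower and 11 higher. Only DDX17 was called there under both scalings in the same direction. At OCI-Ly7 day 6 scaling left 14 lower and 4 higher. Rescaling on the sum over all but ribosomal, small RNA and histone genes gave 0 at TMD8 day 3, 7 at TMD8 day 6 and 16 at OCI-Ly7 day 6 against day 3. With no filter on low values, 7, 11 and 0 members passed in the TMD8 comparisons (day 3, day 6, day 6 against day 3) and 0 at OCI-Ly7 day 6, where all 14 calls held under scaling missed the threshold. A pseudocount of 0.1 changed no call among the members named. With the replicate block, 0 members passed at TMD8 day 3, 0 at TMD8 day 6 against day 3 and 6 for the difference, and 13 at TMD8 day 6 and 12 at OCI-Ly7 day 6. The deviations of same-numbered libraries correlated between -0.147 and 0.133. These values show no pairing by number, but low correlations cannot exclude it. When single libraries were left out, counts ranged from 0 to 28 at TMD8 day 3, 3 to 23 at TMD8 day 6, 0 to 3 at TMD8 day 6 against day 3, 0 to 1 at OCI-Ly7 day 3, 0 to 13 at OCI-Ly7 day 6, 0 to 0 at OCI-Ly7 day 6 against day 3 and 3 to 10 for the difference. The difference counted 3 without the second day 0 library of either line, 4 without the first TMD8 day 0 library, 6 without the first OCI-Ly7 day 0 library or the second TMD8 day 3 library, and 5 and 6 without the OCI-Ly7 day 6 libraries. Directions that reversed were all in members whose change had not passed or that lost the call. In TMD8 at day 6 the scaled log2 changes were 0.0661 for CLK3, 0.0436 for DDX5, 0.14 for HNRNPC, 0.23 for HNRNPF, 0.0373 for RBM5, 0.24 for SF3A1, 0.27 for SRSF11, 0.0218 for SRSF5, 0.20 for SRSF6, 0.22 for SRSF9 and 0.24 for TRA2B. Without ribosomal, small RNA and histone genes they were 0.0765 for HNRNPF, 0.091 for SF3A1, 0.12 for SRSF11, 0.0461 for SRSF6, 0.0692 for SRSF9 and 0.0882 for TRA2B. With single libraries left out they spanned 0 in TMD8 for SRSF3 (-0.0201 to 0.0415), TRA2B (-0.43 to 0.20), SRSF11 (-0.193 to 0.0246), SRSF6 (-0.354 to 0.0361) and RBM39 (-0.0175 to 0.262), and in OCI-Ly7 for RBM39 (-0.0369 to 0.0832) and SRSF1 (-0.26 to 0.83). A group left with 1 library took its spread from the other groups. The cause of these moves was not tested, apart from the shift of all genes that scaling removes by its construction. Depth in fragments is unknown, and CLK4 and PTBP3 had the lowest levels among the members tested.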
